A study of Mus musculus with 12 samples.

Results

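The 45 genes described here act in meiotic recombination, in chromosome synapsis, or in the germ cell programme around them. They form a named list, and they were located by symbol among 21883 protein-coding genes of the RefSeq table for GRCm38/mm10, and all 45 were found, none of them on X or Y. A call is a 140 bp interval that the authors listed as a nucleosome. A gene window is the gene body with 1000 bp on each side, and a call was counted where its midpoint fell in that window. Nucleosomes were mapped by MNase-seq, in which micrococcal nuclease digests the linker DNA between nucleosomes, in germ cells from testes of adult male SV129 mice aged 8 to 12 weeks, with no mutant allele or drug named in the labels. Cells were separated by sedimentation (STAPUT) from pools of 11 mice, and fractions of at least 85% purity were used. The fraction called M here is titled meiotic spermatid and described as meiotic in the protocol; the fraction called RS is labelled round spermatid. Each received MNase at 0.5, 1 or 2 U, RS with 2 times as many cells as M, and both replicates of a condition went into 1 deposited list, so there were 6 lists from 12 samples. With 1 list per condition no difference had a replicate check or a test, and each interval below is a 95% interval that covers counting error only. The purity of the fractions cannot be checked from nucleosome positions.

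In meiotic prophase, chromosomes are folded along a protein axis, cut by programmed double-strand breaks and joined in pairs by the synaptonemal complex, a zipper of transverse filaments between the axes. Breaks made by SPO11 with accessory proteins are repaired on the partner chromosome by DMC1 and the MutS and MutL homologues, some of them as crossovers. In the male this happens in spermatocytes, which then divide into haploid round spermatids. STRA8 and the MEIOC and YTHDC2 complex drive entry into the programme, and the piRNA proteins silence transposons in the same cells.

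Few calls lay in these genes. The 45 windows covered 2.26 Mb and held 180 calls: 16, 10 and 11 in M at 0.5, 1 and 2 U, and 110, 23 and 10 in RS. RS at 0.5 U, the longest list with 179133 calls, gave 61.1% of them, while the other lists held between 27101 and 65614 calls. The density of calls per bp in the windows was below that of all protein-coding gene windows in each of the 6 lists. Relative to all genes it was 0.627 (0.358 to 1.02) in M with the least MNase (0.5 U), 0.245 (0.118 to 0.452) with 1 U and 0.227 (0.113 to 0.406) with 2 U. In RS it was 0.811 (0.667 to 0.978), 0.721 (0.457 to 1.08) and 0.484 (0.232 to 0.890). The intervals of M at 0.5 U and RS at 1 U included 1. No window touched a 10 kb bin with more than 20 calls in a list; without such bins in the background, relative densities were 0.718, 0.275 and 0.251 in M and 0.855, 0.824 and 0.576 in RS. The intervals of RS at 0.5 U (0.703 to 1.03) and at 2 U (0.276 to 1.06) then also included 1. Neighbouring calls can overlap and are not independent, so these intervals are too narrow.

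**Figure D1:**
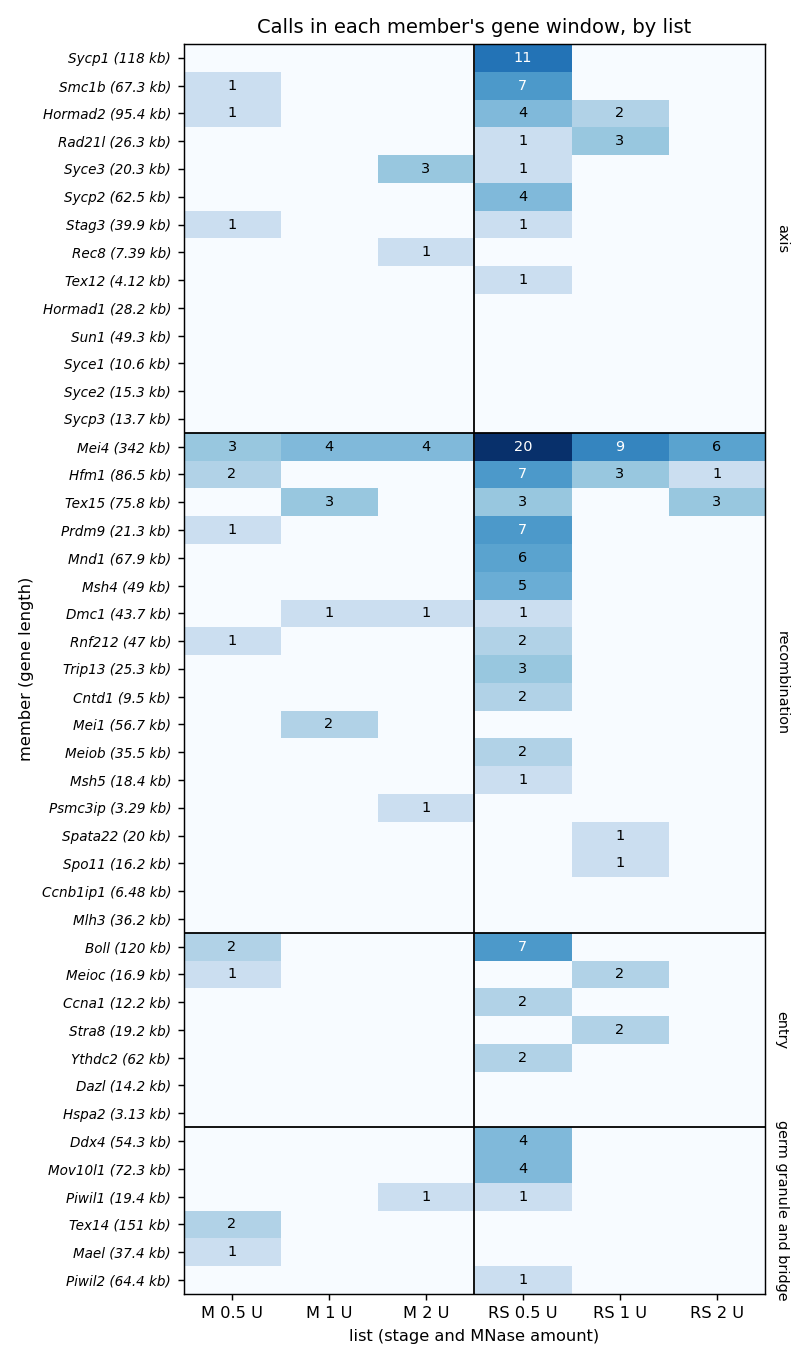
Number of calls in the window of each of the 45 genes (rows, with gene length in kb, grouped by role) in each of the 6 lists (columns); darker blue marks more calls, and empty cells hold no call. The column of RS at 0.5 U is filled most, and Mei4 is the single gene with calls in every column.

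Counted by genes with a call, the shortfall was in 4 of the 6 lists. In M, 11, 4 and 6 of 45 had at least 1 call at 0.5, 1 and 2 U, against 14.9%, 22.9% and 27.6% of all protein-coding genes. In RS the numbers were 27, 8 and 3 of 45, against 47.6%, 22.2% and 16.8%. These genes are longer than most, with a median of 35.5 kb against 17.2 kb. From the 500 protein-coding genes nearest in length to each of them, 7.60, 11.9 and 15.1 genes with a call would correspond in M and 26.9, 12.1 and 9.17 in RS. The numbers were below these values at 1 and 2 U in both stages, above them in M at 0.5 U and level with them in RS at 0.5 U. In the 6 lists together, 36 of 45 had a call against 63.9% of all genes, 18 had one in M against 40.6%, and 31 in RS against 55.0%. Genes of similar length correspond to 34.5, 22.3 and 30.7, so the count was lower than these in M and close to them in RS. The median gene had 2 calls, the same as the median of all protein-coding genes, and 9 genes had none.

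Calls reached the 250 bases before an annotated start site at 3 genes: Sycp1, the transverse filament protein of the synaptonemal complex, Cntd1, a cyclin-like protein needed for crossover maturation, and Msh4, of the MutS heterodimer that stabilises recombination intermediates. All of these calls were in RS at 0.5 U. A start site was listed for 40 of the 45 genes, with 47 promoters, so 6.38% of the promoters were reached, against 5.94% of the promoters of all protein-coding genes. The sequences are shown because they are the promoter DNA under these calls; they are from RefSeq (GRCm38.p6), read 5′ to 3′ on the strand of the gene and end at the base before the start site, and capitals mark the bases inside a call.
Sycp1 promoter, chr3:102936101-102936350, minus strand: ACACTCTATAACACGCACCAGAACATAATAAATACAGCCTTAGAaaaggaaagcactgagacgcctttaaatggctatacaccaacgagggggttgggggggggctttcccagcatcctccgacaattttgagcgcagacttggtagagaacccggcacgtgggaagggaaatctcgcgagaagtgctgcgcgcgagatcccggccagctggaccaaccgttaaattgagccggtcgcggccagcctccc
Cntd1 promoter, chr11:101278953-101279202, plus strand: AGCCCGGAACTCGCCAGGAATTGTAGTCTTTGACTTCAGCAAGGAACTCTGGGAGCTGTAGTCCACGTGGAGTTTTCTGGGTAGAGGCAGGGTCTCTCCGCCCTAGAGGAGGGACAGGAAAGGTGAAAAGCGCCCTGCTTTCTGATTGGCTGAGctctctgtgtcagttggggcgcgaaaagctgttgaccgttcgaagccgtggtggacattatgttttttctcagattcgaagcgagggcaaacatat
Msh4 promoter, chr3:153904892-153905141, minus strand: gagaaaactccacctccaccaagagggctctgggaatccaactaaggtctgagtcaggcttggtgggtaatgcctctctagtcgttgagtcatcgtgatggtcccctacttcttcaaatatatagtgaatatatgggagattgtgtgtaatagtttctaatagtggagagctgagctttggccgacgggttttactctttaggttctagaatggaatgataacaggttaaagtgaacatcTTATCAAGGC
At Cntd1 2 overlapping calls covered 154 of the 250 bases, from 250 to 97 bases before the start. They include the hexamer CACGTG, whose first base lies 187 bases before it. Both calls also lie in the window of the neighbouring gene Coa3. At Sycp1 1 call covered the 44 most distant bases, from 250 to 207 before the start, while CACGTG lies 94 bases before it and outside the call. At Msh4 the call covered the 10 bases next to the start.

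CACGTG, the E-box bound by MAX and its partners, and TTCCCGC, the core of E2F sites, were frequent in these promoters. Both were searched on both strands over the 300 bases from 250 before to 50 after the start. CACGTG was in 14 of 47 promoters (29.8%), of 13 genes, against 7.84% of 21262 promoters of protein-coding genes. TTCCCGC was in 15 of 47 (31.9%), of 14 genes, against 5.95%. These promoters also had a higher observed-to-expected ratio of CpG (median 0.704 against 0.567) and more G and C (61.7% against 56.3%). Among promoters with a CpG ratio of at least 0.5, CACGTG was in 37.8% of 37 and in 11.1% of all, and TTCCCGC in 40.5% and 9.61%. The cyclic AMP response element TGACGTCA was in 0 of 47, against 2.23% of all. The 8 genes with both motifs were Boll, Ddx4, Hormad1, Rnf212, Stag3, Syce2, Sycp3 and Tex12. Of these 8, 2 (Boll and Rnf212) had a call within 1000 bp of a start site. For comparison, 9 of the 40 genes with a start site and 19.5% of all genes had one, so this count does not set the 8 apart. A match of letters does not show that a factor binds.

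The 14 genes of the chromosome axis and the synaptonemal complex had 7 calls in M and 35 in RS. Their relative density was 0.453 (0.0933 to 1.32), 0 and 0.317 (0.0865 to 0.813) in the M lists with rising MNase, and 0.852 (0.575 to 1.22), 0.603 (0.196 to 1.41) and 0 in RS. The exact upper limits of the 2 counts of 0 were 0.349 in M at 1 U and 0.687 in RS at 2 U, and a limit of 3 calls gives 0.284 and 0.559. Sycp1 (chr3:102818499-102936100) had 0, 0 and 0 calls in the M lists and 11, 0 and 0 in RS. These 11 calls formed 5 separate positions. One of them, with midpoints at -276 to -351 bp from the start site, held the highest implied read count of all 180 calls, 10 reads, and another, 11469 bp into the gene, reached 9. Genes nearest to Sycp1 in length had a median of 12 calls, so its total is close to theirs, but all of its calls came from 1 list.

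The calls of Smc1b, Hormad2 and Sycp2 were also mostly in RS at 0.5 U. Smc1b, the meiotic cohesin ATPase (chr15:85064689-85131957), had 1, 0 and 0 calls in the M lists and 7, 0 and 0 in RS, and 5 of these 8 also lie in the window of its neighbour Fam118a. Hormad2, which marks unsynapsed axes (chr11:4345801-4441198), had 1, 0 and 0 in M and 4, 2 and 0 in RS. Sycp2, a lateral element protein, had 4 calls, all in RS at 0.5 U. Rad21l, a meiotic kleisin, had 1 in RS at 0.5 U and 3 in RS at 1 U, the latter overlapping. Syce3, of the central element, had 3 calls in M at 2 U and 1 in RS at 0.5 U, all at 1 place. Stag3, another cohesin subunit, had 1 call in M and 1 in RS, and the kleisin Rec8 had 1 in M at 2 U. Tex12, of the central element, had 1 in RS at 0.5 U, which also lies in the window of its neighbour Il18. The lateral element gene Sycp3, the central element genes Syce1 and Syce2, the HORMA domain gene Hormad1 and Sun1, which tethers telomeres to the nuclear envelope, had no call in any list. Of these 5, Sun1 is the longest at 49.3 kb, and the genes nearest to it in length had a median of 4 calls.

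The 18 recombination genes held 23 calls in M and 83 in RS, more than the other 27 genes together. Their relative density in RS was 0.984 (0.749 to 1.27), 0.992 (0.542 to 1.67) and 1.09 (0.525 to 2.01) with rising MNase. Without Mei4, described next, it was 0.994, 0.541 and 0.669, so the values at 1 and 2 U rest on that gene. In M it was 0.621 (0.249 to 1.28), 0.555 (0.266 to 1.02) and 0.280 (0.103 to 0.609). Mei4, needed for double-strand break formation (chr9:81863670-82206007), carried 46 of the calls: 3, 4 and 4 in M and 20, 9 and 6 in RS. It was the single gene of the 45 with a call in all 6 lists, against 4.57% of all genes. At 342 kb it is the longest of them and takes 15.3% of the window length. Genes nearest in length had a median of 45 calls, and 63.6% of them had calls in all 6 lists. Per 100000 calls of a list, Mei4 had 6.62 calls in M and 18.3 in RS, as means over the 3 amounts. Its 46 calls formed 33 positions from 28153 to 335316 bp into the gene, each in a single list, and no 2 positions lay closer than 255 bp. Without Mei4 the relative density in RS at 2 U fell from 0.484 to 0.229 (0.0623 to 0.585), with 4 calls left there.

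**Figure D2:**
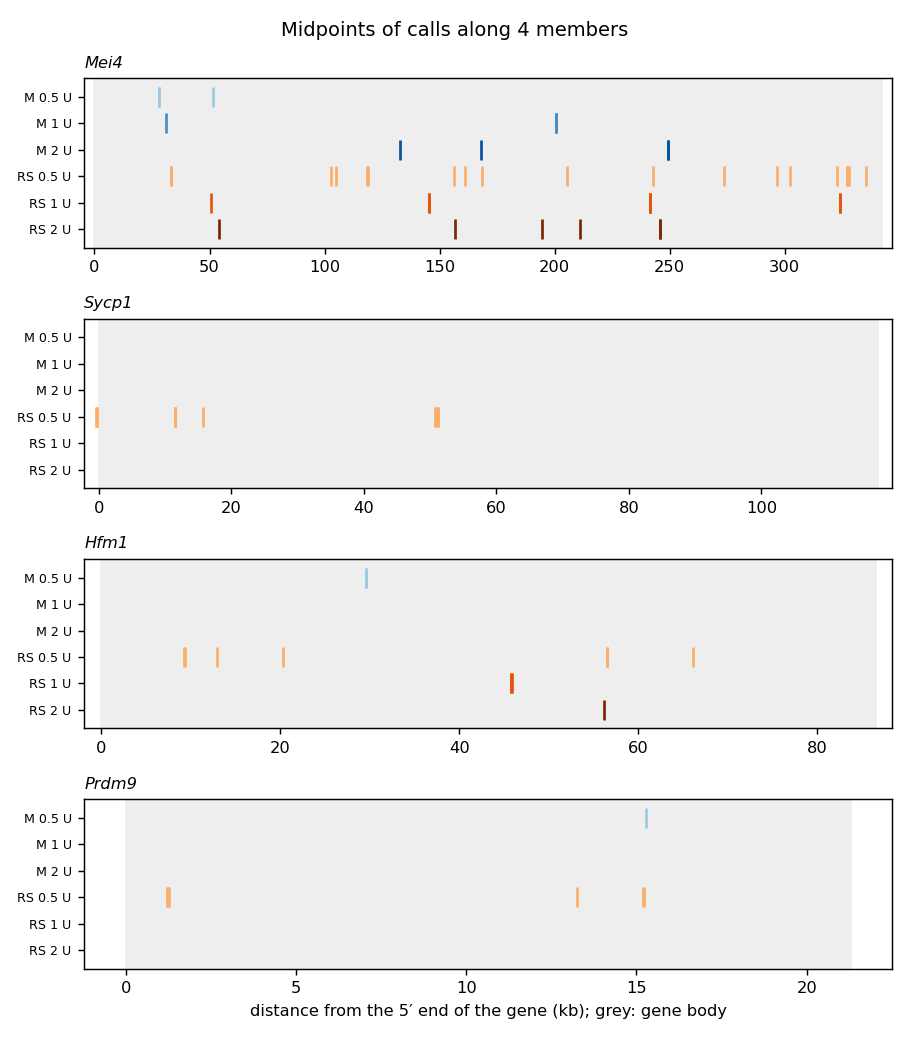
Midpoints of calls (ticks) along Mei4, Sycp1, Hfm1 and Prdm9, in kb from the 5′ end of the gene, with 1 line per list and the gene body in grey. Ticks of different lists rarely line up, and those of Sycp1 are all in RS at 0.5 U.

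Among the other recombination genes, Hfm1, a helicase for crossover formation (chr5:106840193-106926712), had 2, 0 and 0 calls in the M lists and 7, 3 and 1 in RS, and genes of its length had a median of 8. Prdm9, the methyltransferase that sets the place of recombination hotspots (chr17:15543072-15564374), had 1, 0 and 0 in M and 7, 0 and 0 in RS, against a median of 2 for genes of its length. These 8 calls formed 3 positions, and 4 of them overlapped between 170 and 235 bp after a start site, with up to 8 implied reads. Tex15, which acts in break repair and transposon silencing, had 0, 3 and 0 in M and 3, 0 and 3 in RS. Mnd1, a partner of DMC1, had 6 calls, Msh4 5 and Trip13, which removes HORMA domain proteins from synapsed axes, 3, all in RS at 0.5 U. For 3 genes the raw count of calls was higher in M than in RS. Mei1, required for breaks, had 2 in M at 1 U, Psmc3ip, the HOP2 partner of MND1, had 1 in M at 2 U, and the recombinase Dmc1 had 1 each in M at 1 U, M at 2 U and RS at 0.5 U. The crossover regulator Rnf212 had 1 call in M and 2 in RS, but more in M per 100000 calls of a list (0.79 against 0.37). By that measure 4 of the 18 recombination genes were higher in M and 12 in RS, against 25.5% and 38.4% of all genes. Cntd1 and Meiob, a single-strand DNA binding protein, had 2 each, and Msh5 had 1, in RS at 0.5 U. Spata22, the partner of MEIOB, and Spo11, which makes the breaks, had 1 each, in RS at 1 U. The crossover genes Mlh3 and Ccnb1ip1 had none. RS at 2 U held calls in Mei4, Hfm1 and Tex15 only, of all 45 genes.

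The 7 genes of meiotic entry and progression had 3 calls in M and 15 in RS. Their relative density was 1.01 (0.209 to 2.96) in M at 0.5 U and 0.699 (0.349 to 1.25) and 1.08 (0.294 to 2.76) in RS at 0.5 and 1 U, and the other 3 lists had no call in them. Boll, an RNA-binding protein of the DAZ family (chr1:55243566-55363789), had 2, 0 and 0 calls in the M lists and 7, 0 and 0 in RS, against a median of 12 for genes of its length. Meioc had 1 in M at 0.5 U and 2 in RS at 1 U. The RNA helicase gene Ythdc2 and the cyclin gene Ccna1 had 2 each in RS at 0.5 U, and Stra8 had 2 overlapping calls in RS at 1 U. Dazl, another DAZ family gene, and Hspa2, a germ cell chaperone, had none. The 6 genes of the germ granule and the bridges between germ cells had 4 calls in M and 10 in RS. The helicase genes Ddx4 and Mov10l1 had 4 each in RS at 0.5 U. The PIWI genes Piwil1 and Piwil2 had 2 and 1 calls, and Mael, of the piRNA pathway, had 1 in M at 0.5 U. Tex14, of the bridges (151 kb), had 2 overlapping calls in M at 0.5 U and none elsewhere, against a median of 17 for genes of its length, and was the least called of the 4 genes over 100 kb. These 6 genes had a relative density of 0.646 (0.133 to 1.89), 0 and 0.113 (0.00287 to 0.631) in the M lists, and of 0.405 (0.194 to 0.745), 0 and 0 in RS.

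**Figure D3:**
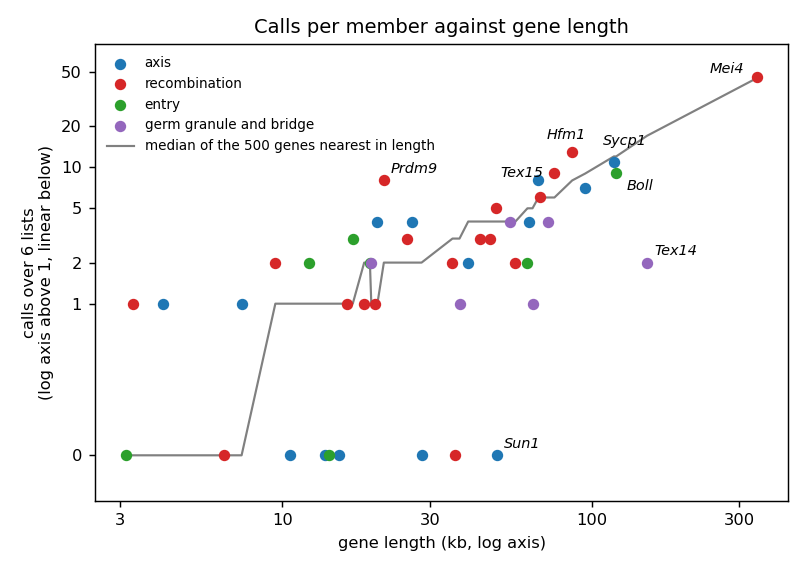
Calls over the 6 lists for each of the 45 genes against gene length (both axes logarithmic, the y axis linear below 1), coloured by role, with the median of the 500 protein-coding genes nearest in length as a line. Mei4 lies close to the line, at 46 calls against 45, Prdm9 lies above it and Tex14 below it.

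With the 6 lists summed, the density was below that of all genes in each class of gene length. The 16 genes under 20 kb had 72.1 calls per Mb of window (41.2 to 117) against 143 for all protein-coding genes of that length. The 14 genes of 20 to 50 kb had 71.0 (49.7 to 98.3) against 132, the 11 of 50 to 100 kb had 76.2 (58.2 to 98.1) against 128, and the 4 over 100 kb had 92.0 (71.5 to 117) against 136. The ratio to all genes thus ran from 0.506 to 0.675 over the 4 classes. With the lists of a stage summed, it was between 0.245 and 0.389 in each class in M, and between 0.623 and 0.852 in RS. In single lists it exceeded 1 for the genes under 20 kb in RS at 1 U (1.32, from 5 calls). It also did so for those over 100 kb in RS at 2 U (1.05, from 6 calls).

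Within 1000 bp of an annotated start site, 9 of 40 genes had a call in some list, against 19.5% of all genes. In RS at 0.5 U there were 15 calls there, at 7 genes (17.5%, against 8.43% of all genes), in M at 2 U there was 1 at Psmc3ip (against 5.34%), and in RS at 1 U there was 1 at Hormad2 (against 2.52%). M at 0.5 U, M at 1 U and RS at 2 U had none, against 1.72%, 3.73% and 1.93%. By stage, 1 gene had such a call in M (against 9.68%) and 8 in RS (against 12.0%). In RS at 0.5 U this was 177.5 calls per Mb (99.4 to 293), against 65.3 for all genes. Many of these calls overlapped: Prdm9 gave 4, Sycp1 3, and Boll, Cntd1 and Rnf212 2 each, with 1 each at Msh4 and Smc1b. Counted as 7 merged positions the density was 82.9 per Mb (33.3 to 171), against 41.3, and the interval included the value of all genes. With each gene cut into 3 equal parts, 38.4% (30.8 to 46.4) of the calls in the 40 genes with a known strand lay in the part at the 5′ end, against 34.3% for all genes.

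Most calls stood at the minimum strength and few were repeated in another list. The authors' p-values correspond to upper tails of a Poisson distribution, and from these 148 of the 180 calls had 6 implied reads, the minimum of every list, 25 had 7 and 7 had 8 or more. The fitted Poisson mean differed by list, from 0.409 in RS at 2 U to 0.696 in RS at 0.5 U. So 6 reads correspond to a larger p-value in RS at 0.5 U than in the other lists. In RS at 0.5 U, 85.5% (77.5 to 91.5) stood at the minimum, against 71.7% of the calls in all gene windows and 74.2% of those outside dense bins. In M the share was 70.3% (53.0 to 84.1), against 70.2% in all gene windows and 75.5% outside dense bins. M at 1 U went the other way, with 5 of 10 calls at the minimum (an interval of 18.7% to 81.3%) against 71.2%, and 76.6% outside dense bins. Merged across lists at 73 bp, the 180 calls made 125 positions. Of these 122 came from 1 list, 79 of them from RS at 0.5 U, and 3 from 2 lists. The repeated positions were in Hormad2 (chr11:4356587-4356756, M and RS at 0.5 U), Prdm9 (chr17:15549022-15549251, M and RS at 0.5 U) and Syce3 (chr15:89408987-89409173, M at 2 U and RS at 0.5 U). Each paired an M list with RS at 0.5 U, and no position was in 3 lists. By calls, 8 of 180 (4.44%, 1.94 to 8.57) had a call of another list within 73 bp, against 13.9% in all gene windows and 6.53% in those outside dense bins. Without RS at 0.5 U it was 0 of 70 at 73 bp, against 16.1% in all gene windows and 6.51% outside dense bins. The exact upper limit of this 0 was 5.13% (4.29% by the limit of 3 calls). It depends on the distance: in Meioc, calls of RS at 1 U (chr11:102677542-102677701) overlap a call of M at 0.5 U (chr11:102677452-102677591). Within 140 bp, 12 of the 180 calls (6.67%, 3.49 to 11.4) were shared, against 15.4% in all gene windows and 7.83% outside dense bins.

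The comparison of the stages at the same amount of MNase asked in which stage these genes held relatively more calls. With all calls counted, the relative density was higher in RS at each of the 3 amounts. The fold of RS over M came to 1.29 (0.5 U), 2.94 (1 U) and 2.14 (2 U), or log2 ratios of 0.37 (-0.39 to 1.23), 1.55 (0.43 to 2.79) and 1.09 (-0.30 to 2.47). The interval excluded 0 only at 1 U. Averaged over the amounts, the log2 ratio was 0.98 (0.39 to 1.57), and 0.78 (0.01 to 1.55) without Mei4. With only the calls above the minimum of 6 reads it was 0.25 (-1.08 to 1.57). The direction then turned at 0.5 U, with a relative density of 0.603 in M and 0.417 in RS, and at 1 U the stages were nearly level at 0.426 and 0.452. At 2 U it was 0.0706 (0.0018 to 0.39) in M and 0.170 (0.0043 to 0.95) in RS. There 10 of 11 calls in M and 9 of 10 in RS stood at the minimum and were left out. For equal MNase per cell, RS at 1 U was paired with M at 0.5 U and RS at 2 U with M at 1 U. With all calls, the averaged log2 ratio of these pairs was 0.58 (-0.19 to 1.34). It uses neither RS at 0.5 U nor M at 2 U. Of the 45 genes 25 had more calls per 100000 in RS, against 38.4% of all genes, and 11 had more in M, against 25.5%. Of genes with any call that is 69.4% higher in RS, against 60.2% of all genes. From genes of similar length 21.3 and 13.2 would correspond. Calls in both stages were found for 13, against 31.7% of all genes, and genes of similar length correspond to 18.5.

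The intervals of the 4 subgroups overlapped. Averaged over the amounts, their log2 ratio of stage RS to stage M came to 0.86 (-1.19 to 2.91) for the axis genes, 1.10 (0.40 to 1.81) for recombination, 1.35 (-1.07 to 3.77) for entry and -0.28 (-2.78 to 2.22) for the germ granule and bridge genes. Only the interval of the recombination genes excluded 0. Without Mei4 their value was 0.97 (-0.07 to 2.00), and with only the calls above 6 reads it turned to -0.51 (-2.01 to 0.99).

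A second list of 45 meiosis genes, without any of the first, was counted in the same way. It holds axis, telomere, break, crossover and piRNA genes such as Rec114, Ankrd31, Atr, Tdrd6 and Mcm9, the 5 with the most calls (26, 14, 14, 11 and 10). Of its genes 27 had more calls per 100000 in RS and 8 in M, against 38.4% and 25.5% of all genes. Of its genes with any call that is 77.1% higher in RS, against 60.2% of all genes. No value from genes of similar length was computed for this list. The averaged log2 ratio was 1.25 (0.56 to 1.93), but RS was higher at only 2 of 3 amounts. Its relative density in RS was 0.721, 0.780 and 0.430 from 0.5 to 2 U, within the intervals of the first list. In M the lists went opposite ways with more MNase. The first fell from 0.627 to 0.227, a log2 change of -1.47 (-2.72 to -0.27), and the second rose from 0.105 to 0.495, a change of 2.24 (0.54 to 4.61). The difference of these changes was -3.71 (-5.76 to -1.66), from 16 and 11 calls against 3 and 27, and -3.25 (-5.43 to -1.07) with overlapping calls merged. These intervals treat calls as independent, and no replicate checks the difference.

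**Figure D4:**
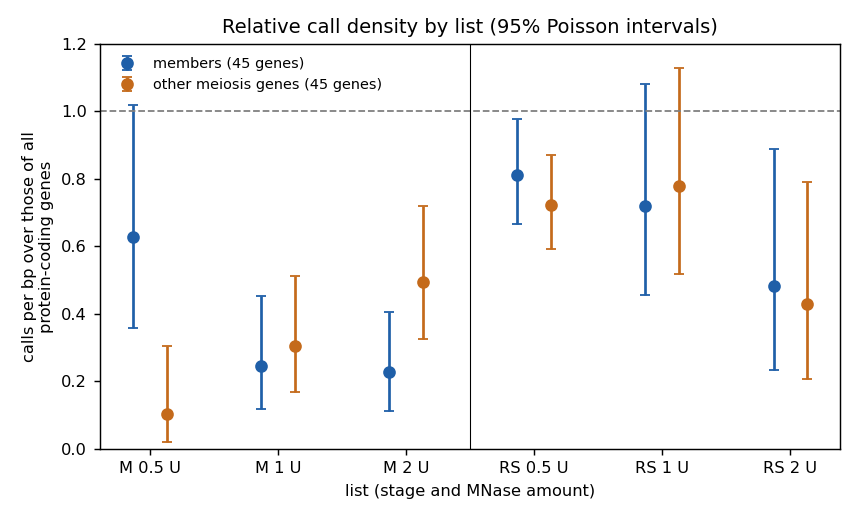
Calls per bp in the windows of the 45 genes (blue) and of 45 other meiosis genes (orange), over those of all protein-coding genes, by list; bars are 95% Poisson intervals for counting error and the dashed line marks 1. The 2 sets lie close in RS, and in M the blue values fall from 0.627 to 0.227 while the orange values rise from 0.105 to 0.495.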

How the data were processed

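Per the design text, the authors pooled both replicates of a condition into each of 6 nucleosome lists, and GRCm38/mm10 and STAR 2.5.2a stand in the submitters' processing notes; the caller is not given in the sources used here. Each list holds 140 bp intervals and the authors deposited a p-value for each interval without read counts, so the sequencing depth is unknown. Implied reads were derived by matching p-values to Poisson tails. Midpoints (start plus 70) on 21 chromosomes were counted in RefSeq gene windows; exons and introns were not analysed here. Relative density is calls per bp over that of the union of all protein-coding windows. Intervals are exact Poisson, exact binomial (Clopper-Pearson), or normal from counts for mean log2 ratios, which have 0.5 added to observed and expected calls. Strand and start sites came from the promoter table. The 45 genes, the subgroups and the second list of 47 symbols (45 matched) were chosen with earlier results of these data known. Genes with 6 or more calls were to be named with their counts in all 6 lists. Genes with 3 or more calls, all in 1 stage, and 8 set genes were to be named, and the others given by their totals or as having no call. Counting was tested on simulated data, where planted densities of 0.25, 0.5 and 2 came back as 0.264, 0.504 and 1.97 over 45 genes. The simulated calls lay independently at random and numbered 594, 1135 and 4462 in the windows. This checks the counting alone, not sparse or overlapping calls or the intervals. Alternatives changed the flank, counting, strength, dense bins, background, genes and amounts. Python 3.11.15, numpy 2.4.6, pandas 2.3.3, scipy 1.17.1 and matplotlib 3.10.9 were used.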

Additional observations from a re-analysis of the deposited data

How the results depend on the processing

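No paired analysis was possible because each deposited list pools both replicates of a condition, and no replicate could be left out. Of 131 recomputed values 116 stayed within the counting interval of the reported value, or within 1.5 times a count. The stage ratio (log2, averaged over amounts) kept its sign under all 18 alternatives run (0.25 to 1.30). With calls above the minimum (-1.08 to 1.57) and at equal MNase per cell the interval included 0. Most changes came with calls above the minimum of 6 reads, which leaves 32 calls. Relative density was then 0.603, 0.426 and 0.0706 in the M lists with rising MNase and 0.417, 0.452 and 0.170 in those of RS. RS was thus lower than M at 0.5 U and nearly level at 1 U, and the mean log2 ratio was 0.25. Its sign rested on 2 U, where 10 of 11 calls in M and 9 of 10 in RS were left out. The intervals there were 0.0018 to 0.39 in M and 0.0043 to 0.95 in RS. Genes with a call were then 6 in M and 13 in RS, and 11 were higher in RS and 5 in M. No share of all genes is given for calls above the minimum, so these counts cannot be compared with genes in general. The ratio of the recombination genes turned to -0.51 (-2.01 to 0.99) and that of the germ granule and bridge genes to 0.33 (-2.75 to 3.41). Equal MNase per cell, which uses neither RS at 0.5 U nor M at 2 U, gave 0.58 (-0.19 to 1.34). Leaving out each gene in turn moved the relative density of RS at 2 U between 0.229 (without Mei4) and 0.519. Shared calls were 1.67% within 20 bp, 6.67% within 140 bp and, at 73 bp, 0% without RS at 0.5 U. Leaving out that list was chosen after seeing the data. So were autosomes as background (mean log2 ratio 0.97) and merged calls in the comparison with other meiosis genes.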
